A study of Mus musculus with 13 samples.

Results

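Cardiac muscle genes were examined in bulk RNA sequencing of mouse aorta. The group holds 8 genes, chosen by symbol from the deposited expression table: Myl4, Myl7, Myh6, Nppa, Tnnt2, Tnni3, Actc1 and Sln. They are 8 of 28510 genes with values in that table, and all 8 passed the filter on low values, which kept 13748 genes. The aorta samples came from 4 groups of mice. The vehicle group (4 libraries, from an arm of 11 mice) drank water alone. The fasudil group (3 libraries, 10 mice) received fasudil, a protein kinase inhibitor, in water at 150 mg/kg/day. The BAPN group (2 libraries used, 12 mice) received β-aminopropionitrile, an inhibitor of the lysyl oxidases, at 0.25% in water. The combined group (3 libraries, arm size not given in the sources used here) drank 0.25% BAPN alone for 1 week, and from then on both compounds at those doses. The mice were kept under SPF conditions through 1 week of acclimatisation and a 4-week experiment, and strain, sex and age are not given in the sources used here. Nothing in the labels says that each library came from a separate animal, so the p-values measure the spread between these libraries, which may be technical. The titles give the 3 BAPN libraries the same first number and differ in the last, where each library of the other groups has a first number of its own. The descriptions number the BAPN libraries separately. Whether they are repeats of 1 sample is not stated, and if they are, the BAPN group holds 1 sample and its SDs and tests cover technical spread only.

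Working heart muscle contracts through a sarcomere in which myosin heavy and light chains pull on actin filaments, under the control of a troponin complex that senses calcium. Several of its proteins have isoforms particular to the heart, and some of those mark the atria rather than the ventricles. In mice, heart muscle also reaches beyond the heart, as sleeves around the large veins that enter the atria. The aortic wall itself is built of smooth muscle, which uses a separate set of actin, myosin and regulatory genes.

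All 8 cardiac genes were read in the aorta, and in the 12 libraries used their levels varied more between libraries of a group than between groups. The fasudil replicate 1, BAPN replicate 1 and vehicle replicate 3 libraries, each from a different group, were the 3 highest for 7 of the 8 genes. Nppa was the exception, with BAPN replicate 1, combined replicate 3 and fasudil replicate 1 as its 3 highest. No cardiac gene passed the test in any of the 6 comparisons between groups. In bulk tissue, fewer cells of a type and less RNA per cell cannot be told apart.

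Levels are given as FPKM, fragments normalised to transcript length and library size, after scaling between libraries, so they can be set side by side between genes. Estimated depth was 20.4 to 20.9 M reads per library, and 11127 to 13601 genes reached 1 FPKM in a library. Smooth muscle genes, which define the aortic wall, were present in every library. The summed scaled FPKM of 10 smooth muscle genes ran from 629 in fasudil replicate 2 to 10997 in combined replicate 2, with none of the 10 at 0 in any library. The summed scaled FPKM of the 8 cardiac genes ran from 10.8 to 314. By mean scaled FPKM over the 12 libraries the cardiac genes ranked as Tnnt2 (17.5), Myl4 (13.3), Myl7 (12.8), Myh6 (10.6), Nppa (10.5), Actc1 (9.90), Tnni3 (8.43) and Sln (3.36). Neighbours in that order overlapped widely, and by median Nppa (0.818) stood just above Sln (0.473).

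The promoters of 4 members are shown as examples. No link between these sequences and the levels across libraries was tested. Each window is 300 bases of RefSeq sequence in GRCm38.p6, read 5′ to 3′ on the gene's strand, from 250 bases before the start to 50 bases after it. Capitals mark the motifs found by a search of both strands, other than E-boxes. The windows lie at chr11:5898733-5899032 on the minus strand for Myl7, chr14:54966558-54966857 on the minus strand for Myh6, chr4:148000472-148000771 on the plus strand for Nppa and chr2:114052826-114053125 on the minus strand for Actc1.
Myl7: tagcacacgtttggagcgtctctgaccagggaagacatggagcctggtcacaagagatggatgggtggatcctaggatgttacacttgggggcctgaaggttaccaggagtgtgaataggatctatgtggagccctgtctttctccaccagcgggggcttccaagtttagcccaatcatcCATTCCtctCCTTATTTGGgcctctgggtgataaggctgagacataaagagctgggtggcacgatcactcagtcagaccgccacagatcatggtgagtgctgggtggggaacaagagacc
Myh6: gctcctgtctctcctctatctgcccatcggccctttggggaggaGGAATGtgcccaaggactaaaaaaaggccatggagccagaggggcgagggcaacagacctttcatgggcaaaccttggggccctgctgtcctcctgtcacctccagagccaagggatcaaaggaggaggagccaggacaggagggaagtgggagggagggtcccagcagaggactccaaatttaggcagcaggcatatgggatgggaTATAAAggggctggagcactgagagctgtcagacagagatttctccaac
Nppa: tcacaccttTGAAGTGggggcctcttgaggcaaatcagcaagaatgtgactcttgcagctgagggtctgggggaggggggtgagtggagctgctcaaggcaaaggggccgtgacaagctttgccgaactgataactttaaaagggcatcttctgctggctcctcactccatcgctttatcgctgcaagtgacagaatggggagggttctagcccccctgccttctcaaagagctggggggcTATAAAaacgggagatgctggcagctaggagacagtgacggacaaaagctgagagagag
Actc1: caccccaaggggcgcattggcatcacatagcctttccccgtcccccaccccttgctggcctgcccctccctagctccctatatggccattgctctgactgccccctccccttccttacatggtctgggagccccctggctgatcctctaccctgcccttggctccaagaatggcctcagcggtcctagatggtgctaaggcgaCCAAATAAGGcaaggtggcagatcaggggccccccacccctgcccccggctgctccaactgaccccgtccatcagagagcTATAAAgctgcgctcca

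The sequence table held windows for 7 of the 8 members, with 2 windows for Tnnt2. The letters TATAAA, those of a TATA box, were found in 3 of those 7 genes, and in 13.6% of all 32851 promoter windows in the table. They began at base 2 after the start used in Myh6, base 34 after it in Actc1 and 9 bases before it in Nppa, where a TATA box lies farther upstream of the start as a rule. The letters CATTCC, which TEAD factors bind, were in Myl7, Myh6 and Tnnt2, against 14.7% of all windows. A CArG motif, the site of serum response factor, was in Myl7 and Actc1, against 1.63% of all windows. Nppa held TNAAGTG, a form of the NKX2-5 site, which 11.5% of windows hold, and Tnnt2 held the GATA motif AGATAA, which 11.2% hold. E-boxes (CANNTG) were in 6 of the 7 genes and in 72.3% of windows, and a MEF2 motif, held by 3.19% of windows, was in none of the 7. These matches describe the letters in the windows and no binding.

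The first members are the myosin subunits. Myl4, on chromosome 11 (104441489 to 104486579, plus strand, GRCm39 as in the deposited table), encodes the atrial essential light chain. Its scaled FPKM was 5.48, 5.75, 20.4 and 5.89 in vehicle replicates 1 to 4, 46.5, 5.53 and 4.08 in fasudil replicates 1 to 3, 37.4 and 4.94 in BAPN replicates 1 and 3, and 5.65, 8.89 and 9.54 in combined replicates 1 to 3. Myl4 was thus high in 1 library of each of the vehicle, fasudil and BAPN groups, and all 4 groups overlapped. It had the highest floor of the 8 genes, never below 4.08, and 51.3% of the cardiac sum in the lowest library, fasudil replicate 2, was Myl4.

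Myl7 (chromosome 11, 5846637 to 5848782, minus strand) encodes the atrial regulatory light chain. Its scaled FPKM was 0.469, 4.91, 19.1 and 4.66 in vehicle replicates 1 to 4, 48.4, 0.0918 and 1.33 in fasudil replicates 1 to 3, 53.7 and 2.05 in BAPN replicates 1 and 3, and 4.55, 6.49 and 7.75 in combined replicates 1 to 3. The groups overlapped, and the 3 fasudil libraries alone held both the lowest and the second highest of the 12 values. Per unit of Myl4, Myl7 was at a ratio of 1.04 in fasudil replicate 1, 1.44 in BAPN replicate 1 and 0.933 in vehicle replicate 3, but at 0.0856 in vehicle replicate 1.

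Myh6 (chromosome 14, 55179378 to 55204384, minus strand) encodes the alpha myosin heavy chain, which in the adult mouse serves both atria and ventricles. Its scaled FPKM was 0.710, 3.92, 16.2 and 2.52 in vehicle replicates 1 to 4, 50.5, 0.642 and 1.19 in fasudil replicates 1 to 3, 31.0 and 2.87 in BAPN replicates 1 and 3, and 6.87, 4.74 and 6.56 in combined replicates 1 to 3. The same libraries stood high as for the light chains, and the combined libraries lay close together, inside the range of every other group.

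The thin filament members followed. Tnnt2 (chromosome 1, 135764092 to 135779998, plus strand), which encodes the cardiac troponin T that ties the troponin complex to tropomyosin, had the highest mean of the 8 genes. Its scaled FPKM stood at 5.40, 10.2, 23.2 and 3.97 in vehicle replicates 1 to 4, 63.7, 2.06 and 4.88 in fasudil replicates 1 to 3, 44.4 and 4.99 in BAPN replicates 1 and 3, and 11.8, 15.0 and 20.6 in combined replicates 1 to 3. All 3 combined libraries were above 3 of the 4 vehicle libraries, and vehicle replicate 3 was above all 3 of them.

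Tnni3 (chromosome 7, 4521304 to 4527228, minus strand) encodes cardiac troponin I, the inhibitory subunit. It was at 2.08, 3.63, 16.7 and 1.92 scaled FPKM in vehicle replicates 1 to 4, 33.7, 1.46 and 2.14 in fasudil replicates 1 to 3, 20.2 and 2.63 in BAPN replicates 1 and 3, and 5.46, 5.59 and 5.70 in combined replicates 1 to 3. The combined libraries differed by a ratio of 1.04 between highest and lowest, while the fasudil libraries differed by a ratio of 23.1. Tnni3 was also the member closest to the common pattern, with a Spearman correlation of 0.993 to the mean of the 8 standardised profiles, which contains it.

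Actc1 (chromosome 2, 113877763 to 113884029, minus strand) encodes cardiac alpha actin. Its scaled FPKM was 4.51, 3.58, 23.7 and 1.43 in vehicle replicates 1 to 4, 33.5, 0.387 and 8.45 in fasudil replicates 1 to 3, 17.9 and 5.89 in BAPN replicates 1 and 3, and 3.55, 6.76 and 9.18 in combined replicates 1 to 3. Here vehicle replicate 3 was above BAPN replicate 1. Actc1 made up 36.8% of the cardiac sum in fasudil replicate 3, its highest share, against 11.0% in fasudil replicate 1.

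The remaining members are a hormone and a membrane protein. Nppa (chromosome 4, 148085179 to 148086536, plus strand) encodes the precursor of atrial natriuretic peptide, stored and released by atrial muscle. Its scaled FPKM was 0.241, 1.05, 3.34 and 0.802 in vehicle replicates 1 to 4, 5.13, 0.612 and 0.834 in fasudil replicates 1 to 3, 102 and 0.277 in BAPN replicates 1 and 3, and 0.575, 0.375 and 11.2 in combined replicates 1 to 3. BAPN replicate 1 stood alone at the top, and the other BAPN library was the second lowest of the 12.

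Sln (chromosome 9, 53757448 to 53761844, plus strand) encodes sarcolipin, a small inhibitor of the calcium pump of the sarcoplasmic reticulum, found in mouse atria and some skeletal muscles. It was listed at 0 in vehicle replicate 1 and fasudil replicate 2. It was at 0.357, 3.02 and 0.258 scaled FPKM in vehicle replicates 2 to 4, 23.9 and 0.0702 in fasudil replicates 1 and 3, 7.96 and 0.323 in BAPN replicates 1 and 3, and 1.82, 0.589 and 2.12 in combined replicates 1 to 3. Sln was the lowest of the 8 genes by mean, at 3.36, and its top library, fasudil replicate 1, was 3.00 times as high as the next.

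**Figure D1:**
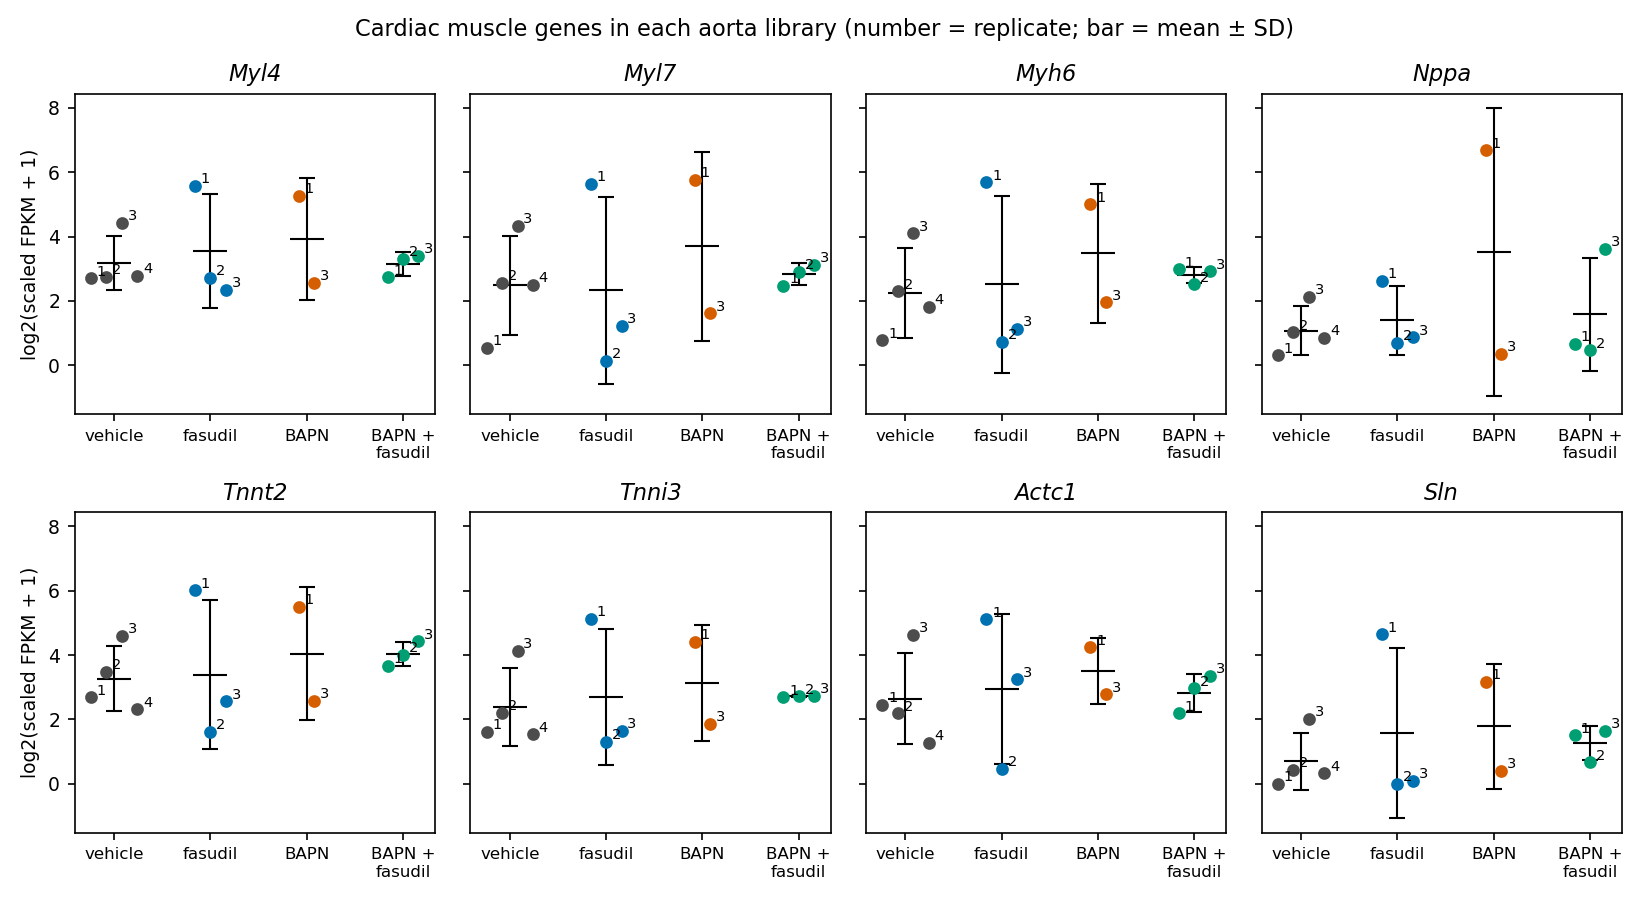
Each panel plots 1 cardiac gene, with a point per library (number = replicate), the group on the horizontal axis and log2 of scaled FPKM plus 1 on the vertical axis; bars are group mean ± SD. Vehicle replicate 3, fasudil replicate 1 and BAPN replicate 1 sit at the top of their groups in every panel, and the groups overlap for all 8 genes.

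The sum of the 8 genes gives the order of the libraries. It was 18.9, 33.4, 126 and 21.4 scaled FPKM in vehicle replicates 1 to 4, 305, 10.8 and 23.0 in fasudil replicates 1 to 3, 314 and 24.0 in BAPN replicates 1 and 3, and 40.2, 48.4 and 72.6 in combined replicates 1 to 3. BAPN replicate 1 and fasudil replicate 1 were close to each other at the top. The mean sum was 49.8 ± 50.9 (SD, n = 4) for vehicle, 113 ± 167 (SD, n = 3) for fasudil, 169 ± 205 (SD, n = 2) for BAPN and 53.8 ± 16.9 (SD, n = 3) for the combined treatment. The SD exceeded the mean in the first 3 groups, so no neighbours in the order of the group means, BAPN, fasudil, combined and vehicle, differed beyond their spread.

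The share of each gene in that sum also varied. Over the 12 libraries, Tnni3 took between 6.43% and 13.6% of the cardiac sum, Myh6 between 3.76% and 17.1%, and Tnnt2 between 14.1% and 30.9%. Myl4 took 11.9% to 51.3%, Actc1 3.60% to 36.8%, Myl7 0.851% to 21.8%, and Sln 0 to 7.82%. Nppa had a median share of 2.90%, with 32.3% in BAPN replicate 1 and 15.4% in combined replicate 3. Between the 2 highest libraries, Nppa was 19.8 times as high in BAPN replicate 1 as in fasudil replicate 1. For the other 7 genes that ratio lay between 0.334 (Sln) and 1.11 (Myl7). Relative to Myl7, Nppa stood at a ratio of 1.89 in BAPN replicate 1 and 1.44 in combined replicate 3, but at 0.106 in fasudil replicate 1 and 0.175 in vehicle replicate 3. In fasudil replicate 2 both genes were under 1 scaled FPKM. These are values of 1 library each, with no test.

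**Figure D2:**
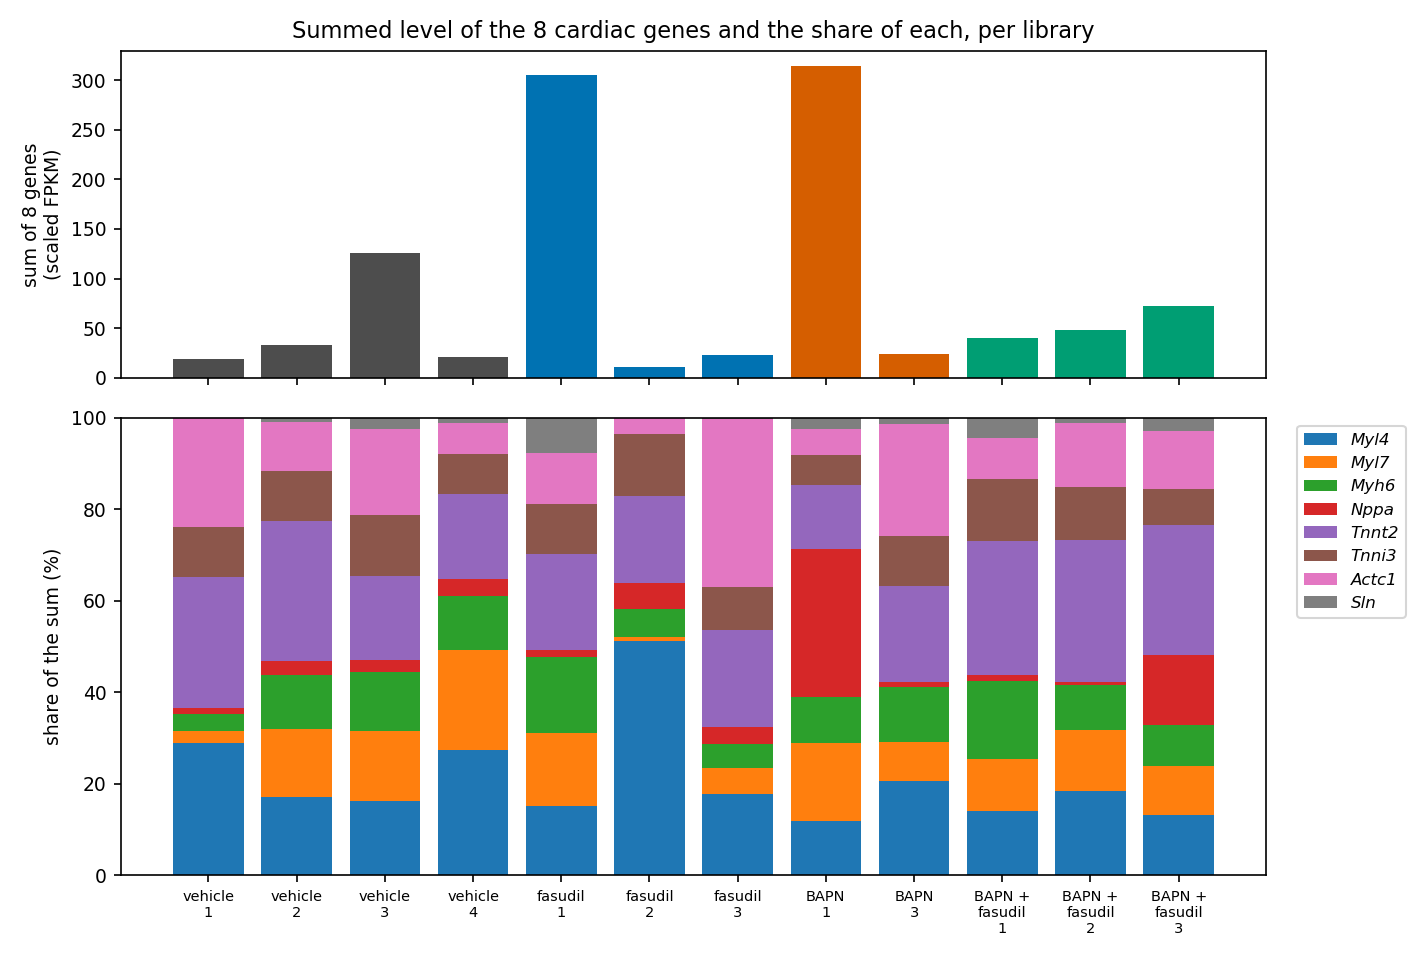
The upper bars give the summed scaled FPKM of the 8 cardiac genes in each library, and the stacked bars below give the share of each gene in that sum in percent. The sums reach 305 in fasudil replicate 1 and 314 in BAPN replicate 1, and the Nppa share is 32.3% in BAPN replicate 1 against 1.68% in fasudil replicate 1.

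Across the 4 groups, the treatment labels held little of the variance of these genes in the 12 libraries used. The split was not computed with BAPN replicate 2, whose values were recovered from the authors' group mean. Of the variance of log2(scaled FPKM + 1) over the 12 libraries, the share between groups was 7.59% for Myl4, 7.36% for Myl7 and 7.66% for Myh6. It was 7.66% for Tnnt2, 4.47% for Tnni3, 5.25% for Actc1 and 9.28% for Sln, and 21.9% for Nppa. The median over all tested genes was 38.8%. The SD within groups, on the same log2 scale, ran from 1.24 for Myl4 to 2.03 for Myl7, against a median of 0.27 over all tested genes. That placed each cardiac gene above at least 98.0% of the tested genes in spread within groups.

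**Figure D3:**
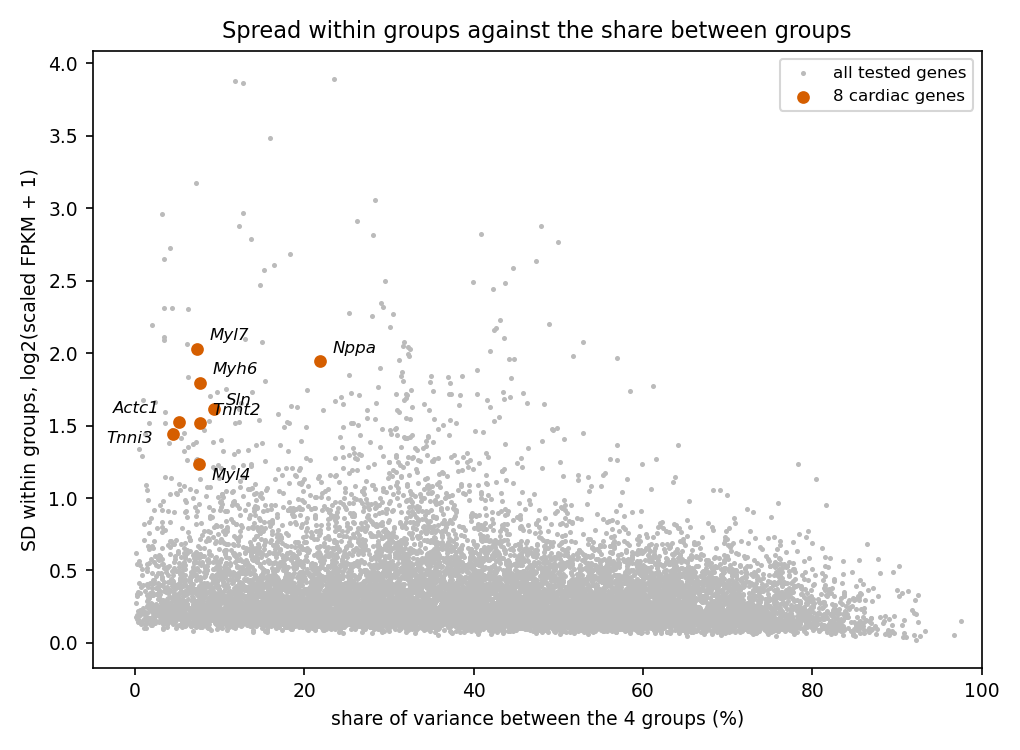
Each point is a tested gene, with the share of its variance that lies between the 4 groups (percent) on the horizontal axis and its SD within groups, on the log2(scaled FPKM + 1) scale, on the vertical axis. The 8 cardiac genes (orange) have within-group SDs of 1.24 to 2.03, and 7 of them have between-group shares under 10%.

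In the combined treatment against vehicle, which asks how BAPN and fasudil together acted on the aorta, no cardiac gene passed the test. The mean scaled FPKM of Tnnt2 was 15.8 ± 4.48 (SD, n = 3) with both compounds and 10.7 ± 8.74 (SD, n = 4) with vehicle, and that of Myl7 was 6.27 ± 1.61 and 7.27 ± 8.11. The fit across all genes gave log2 differences from -0.02 (Myl4) to 0.77 (Tnnt2), with standard errors of 0.83 to 1.36. By limma's moderated test, 0 of 8 had an adjusted p under 0.05 (lowest 0.662, for Tnnt2) and 0 of 8 an unadjusted p under 0.05, while 1.09% of all tested genes were called. None of the 8 had groups that did not overlap, against 28.9% of all tested genes. Of the 8 estimates 7 were positive, with a median of 0.42, where the median of all tested genes was 0.05. The sign of Myl4 turned to 0.33 without scaling between libraries, a setting that moved the median of all genes to 0.35. Without vehicle replicate 3 the median of the 8 was 0.95, and it was 0.11 without vehicle replicate 1. Without combined replicate 3 it was 0.27.

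BAPN against vehicle gave the highest estimates, which turned on 1 library of the BAPN pair used. The BAPN replicate 2 values recovered from the authors' group mean, not used here, were also above every vehicle library for all 8 genes in deposited FPKM. With them added, the median log2 difference of the 8 genes was 1.70. Nppa had a mean scaled FPKM of 50.9 ± 71.6 (SD, n = 2) with BAPN against 1.36 ± 1.36 (SD, n = 4) with vehicle, and a log2 difference of 2.44 with a standard error of 1.48 (limma, adjusted p = 0.396). Myh6 differed by 1.23 ± 1.37 (SE) and Myl7 by 1.21 ± 1.55 (SE) on the same log2 scale. Called members were 0 of 8, and 0 of 8 had an unadjusted p under 0.05. Over all tested genes limma called 0.0%, with 2697 genes under an unadjusted p of 0.05. The groups overlapped for all 8, where 29.9% of all tested genes did not overlap. The 8 estimates were all positive, with a median of 0.98. Without vehicle replicate 3 the median was 1.53. Without BAPN replicate 1 it was -0.55 and 7 of the 8 were negative. Without BAPN replicate 3 the group was BAPN replicate 1 alone, assumed to vary like the other groups. The median was then 2.35, and Nppa alone of the 8 was called (log2 difference 5.60 ± 1.16 SE, limma, adjusted p = 0.0160), among 1667 called genes of all tested.

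Fasudil against vehicle also turned on which libraries entered. Sln had the highest log2 difference, 0.88 ± 1.09 (SE), and Myl7 the lowest, -0.16 ± 1.36 (SE), although the mean scaled FPKM of Myl7 was higher with fasudil (16.6 ± 27.5 SD, n = 3) than with vehicle. Limma called 0 of 8 (lowest adjusted p 0.874) and 0.0% of all tested genes, with 0 of 8 and 1057 of all tested genes at an unadjusted p under 0.05. The groups overlapped for all 8 members, against 9.64% of all tested genes without overlap. The median of the 8 was 0.30. It was -0.85, with all 8 negative, without fasudil replicate 1, and 1.01 without fasudil replicate 2. It was 0.84 without vehicle replicate 3, 0.06 without vehicle replicate 1 and 0.07 without vehicle replicate 4. Without fasudil replicate 3 it was 0.70.

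The effect of adding fasudil to BAPN was asked by the combined group against BAPN. For 7 of the 8 members all combined libraries lay between the pair of BAPN libraries: Myh6, for example, was at 4.74 to 6.87 against 2.87 and 31.0. Actc1 in combined replicate 1 (3.55) was below both BAPN libraries. Nppa had the lowest log2 difference, -1.94 ± 1.56 (SE), and Tnnt2 was at -0.01 ± 1.22 (SE). Limma called 0 of 8, with adjusted p = 1.00 for each, and 0 of 8 had an unadjusted p under 0.05, where 0.00727% of all tested genes were called. Non-overlapping groups were seen for 0 of 8, against 11.6% of all tested genes. The median of the 8 was -0.68, and without BAPN replicate 1 it was 0.86, with all 8 positive. Without BAPN replicate 3 it was -2.0, with 0 members called.

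Against fasudil alone, the combined group gave estimates near 0. Tnnt2 differed by 0.64 ± 1.09 (SE) on the log2 scale and Myl4 by -0.39 ± 0.89 (SE). Limma called 0 of 8 (lowest adjusted p 0.759), 0 of 8 had an unadjusted p under 0.05, and 0.0145% of all tested genes were called. The groups overlapped for all 8, against 21.1% of all tested genes without overlap. The median of the 8 was 0.11. It was 1.24 without fasudil replicate 1, -0.64 without fasudil replicate 2 and -0.24 without fasudil replicate 3. Without combined replicate 3 it was -0.16, and without combined replicate 1 or 2 it was 0.25.

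The interaction sets the difference that fasudil made on top of BAPN against the one it made on its own. It was -2.26 ± 2.04 (SE) for Nppa and -0.14 ± 1.59 (SE) for Tnnt2 on the log2 scale. No member was called by limma (lowest adjusted p 0.920), none had an unadjusted p under 0.05, and 0.00727% of all tested genes were called. The median of the 8 was -0.96. It was 0.31 without fasudil replicate 1, 0.58 without BAPN replicate 1, -2.47 without BAPN replicate 3, -1.81 without fasudil replicate 2 and -1.56 without vehicle replicate 3. The comparisons share groups, so their estimates are not independent of each other.

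**Figure D4:**
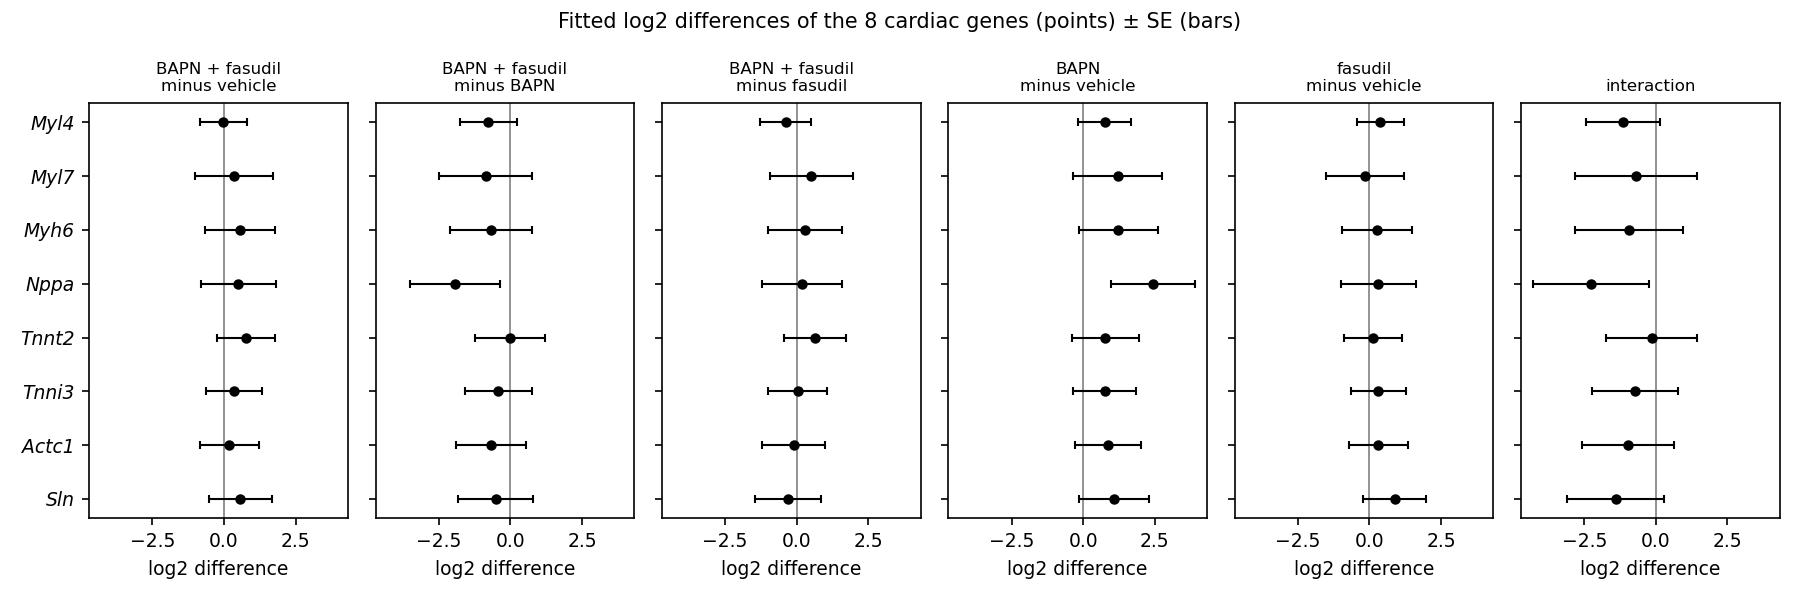
Each panel is 1 comparison, with the fitted log2 difference of each cardiac gene (point) and its standard error (bar) on the horizontal axis and the genes on the vertical axis. The points lie between -2.26 and 2.44, the SEs reach 2.13, and 0 of 8 genes passed the test in any panel.

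Genes that separate the chambers of the heart were read beside the members. Of 8 other atrial genes, 4 were tested. Pam, which encodes the amidating enzyme abundant in atrial granules and made in many other tissues, was at 32.7 to 181 scaled FPKM and did not follow the members, with 44.1 in fasudil replicate 1. Kcna5, a potassium channel gene of this list, was at 2.19 (BAPN replicate 1) to 6.82 (fasudil replicate 1), and Sbk2 at 0.339 to 2.47. Mybphl, a myosin-binding protein gene expressed in mouse atria, was at 5.24 in fasudil replicate 1, 3.85 in BAPN replicate 1 and 1.86 in vehicle replicate 3, and at 0.607 or less in the other 9 libraries. Bmp10, an atrial growth factor gene, was at 0.0136 or less in every library. The other genes not tested were also low. Kcnj5 was highest in fasudil replicate 1 (0.340), BAPN replicate 1 (0.213) and vehicle replicate 3 (0.164). Sbk3 and Kcnj3 were highest in BAPN replicate 1 (2.22 and 0.832), followed by fasudil replicate 1 (0.515 and 0.773).

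Ventricular markers differed among themselves. Irx4, a ventricular transcription factor gene, was listed at 0 in all 12 libraries. Myl2, the ventricular counterpart of Myl7, was at 4.35 scaled FPKM in fasudil replicate 1, 0.854 in BAPN replicate 1 and listed at 0 in vehicle replicate 3. It was listed at 0 also in vehicle replicates 1 and 4 and in fasudil replicates 2 and 3, and was 0.241 in vehicle replicate 2, 1.54 in BAPN replicate 3 and 1.14, 1.29 and 3.76 in combined replicates 1 to 3. Myl7 was thus 11.1 times Myl2 in fasudil replicate 1 and 62.9 times in BAPN replicate 1. Myh7, the beta myosin heavy chain of ventricle and slow skeletal muscle, was at 7.38 in fasudil replicate 1, 0.228 in BAPN replicate 1 and 2.25 in vehicle replicate 3, and at 4.10, 1.35 and 3.64 in combined replicates 1 to 3. It was at 0.299 or less in the other 6 libraries. Hey2, which vessels also express, had the highest mean of the list and was at 4.16 to 17.4. None of the 4 tested ventricular genes was called in any comparison.

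Other genes of heart muscle were counted by list. Of 16 tested sarcomere and Z-disc genes, 10 calcium handling genes, 8 conduction and junction genes, 13 cardiac transcription factor genes and 11 striated muscle metabolism genes, 0 were called by limma in any comparison. The highest by mean in the sarcomere list were Tcap (10.6 to 136 scaled FPKM), Myom1 (14.6 to 113) and Des, which encodes desmin (14.2 to 53.7), and 12 of its 16 genes had positive estimates for the combined group against vehicle. Pln, which encodes phospholamban, the regulator of the cardiac calcium pump, was at 18.3 in fasudil replicate 1, 7.38 in BAPN replicate 1 and 5.23 in vehicle replicate 3, against 1.52 to 3.38 elsewhere. The leading calcium handling genes by mean, Atp2a2 (36.2 to 66.1), Jph2 (2.83 to 68.1) and Srl (1.48 to 11.9), did not have these 3 libraries on top.

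Among junction and channel genes the highest were Gja1, the connexin 43 gene (12.2 to 31.6), Kcnh2 (2.97 to 35.3) and Gja5, the connexin 40 gene that endothelium also expresses (3.88 to 24.8). Among the cardiac transcription factors Mef2d (28.8 to 50.7), Srf (13.8 to 38.5) and Mef2a (14.4 to 21.8) led. Nkx2-5, a factor that defines heart muscle, was at 0.25 scaled FPKM or less in every library. Its highest libraries were BAPN replicate 1 (0.250), fasudil replicate 1 (0.152) and combined replicate 3 (0.142). Gata4 was at 0.703 or less. The metabolism list was led by Cox8b (354 to 4260), Cox7a1 (75.7 to 1172) and Ldhb (95.5 to 656), of which Cox8b and Cox7a1 are also brown fat genes, and all 3 were lowest in BAPN replicate 1. Fabp3 was also lowest there (29.9), and the other genes of the list were not. Mb and Cox6a2, for example, were at 26.1 and 17.2 there. Both were highest in fasudil replicate 1 (67.8 and 53.9).

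Genes outside the members whose pattern was nearest to theirs were taken from 11977 with a mean of at least 1 scaled FPKM. Most of those named were striated muscle genes of the lists: Smpx (Spearman correlation 0.958 with the mean standardised profile over 12 libraries), Mybphl (0.935), Myoz2 (0.895), Tnnc1, the cardiac and slow skeletal troponin C gene (0.888), and Ankrd1 (0.867). Cox6a2 (0.951), a cytochrome oxidase subunit gene of heart and skeletal muscle, was also among them. Another was Ighv1-18 (0.881), an immunoglobulin segment at 21.4 scaled FPKM in BAPN replicate 1 and 1.92 or less elsewhere. Smpx was at 6.72 in fasudil replicate 1, 3.04 in BAPN replicate 1 and 1.68 in vehicle replicate 3, and at 1.29 or less in the others. The 12 points share the same libraries and the same scaling. The authors' deposited table of gene modules puts Myl4, Myl7, Myh6 and Tnnt2 in its green module of 38 genes and Tnni3 and Sln in its yellow module of 39 genes, and puts Nppa and Actc1 in neither.

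Markers of other tissues moved in some of the same libraries. The summed scaled FPKM of 18 skeletal muscle genes was 85.7 to 282 in vehicle, 45.8 to 766 in fasudil, 90.2 to 120 in BAPN and 91.9 to 365 in the combined group. The top was fasudil replicate 1, where none of the 18 was at 0. There Acta1, skeletal alpha actin, stood at 183 against 8.63 in BAPN replicate 1 and 24.1 in vehicle replicate 3. Myl1 was at 16.8 to 94.9 and Casq1 at 0.479 to 56.9. In BAPN replicate 1 the cardiac sum was as high as in fasudil replicate 1 while the skeletal sum was 120, with none of the 18 at 0. Casq1 (50.8) and Myl1 (19.9) led that sum. In vehicle replicate 1, with a sum of 91.9, they were at 22.3 and 59.6, and Acta1 at 1.06. Casq1, the skeletal calsequestrin gene, was at 50.8 in BAPN replicate 1 against 4.88 in fasudil replicate 1. It was the only gene of the list that was higher in BAPN replicate 1. Casq1 was lowest in fasudil replicate 2 and highest in combined replicate 2, as was the smooth muscle gene Acta2. The part of skeletal muscle RNA in the cardiac values was not tested, and no skeletal gene was called in any comparison.

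Vehicle replicate 3 carried airway transcripts. The sum of 10 airway and lung genes was 14249 scaled FPKM there, with none at 0, and 6.50 to 14.8 in the other vehicle libraries, 9.20 to 34.4 in fasudil, 25.1 to 90.2 in BAPN and 11.1 to 251 in the combined group. Scgb1a1, the club cell secretoglobin gene, was at 6486 in vehicle replicate 3 and at 8.76 in fasudil replicate 1 and 4.76 in BAPN replicate 1, and Bpifa1 was at 5508, 3.33 and 1.07 in the same order. Cyp2f2 was at 1075, 21.5 and 17.3. In fasudil replicate 1 and BAPN replicate 1, which had the highest cardiac sums, 3 of the 10 (Sftpc, Sftpa1 and Sftpd) were at 0. The 6 genes of epicardium and mesothelium, led by Msln, Krt19 and Upk3b, summed to 12.2 to 156 in vehicle (156 in replicate 3), 4.43 to 66.4 in fasudil (66.4 in replicate 1), 20.4 to 40.5 in BAPN and 8.22 to 35.0 in the combined group, with none at 0 in any library. Their part in the cardiac values was not tested.

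BAPN replicate 1 differed from the other libraries in further ways. Immunoglobulin genes took 10.5% of its FPKM, against 0.0456% or less in each of the others. The 13 brown fat genes summed to 654 there, against 3463 in BAPN replicate 3 and 6540 to 12151 in vehicle, 3971 to 8380 in fasudil and 2008 to 2499 in the combined group. Ucp1, which uncouples respiration in brown fat, stood at 21.1 there and at 440 to 5039 in the other 11 libraries, and Cidea at 168 against 446 or more. Elovl3 and S100b of this list were the only genes of the 14 lists that limma called in any comparison, both lower in the combined group than in vehicle (log2 difference -3.88 ± 0.76 SE and -2.53 ± 0.39 SE, adjusted p = 0.0481 and 0.0326). With 1 library left out, the adjusted p (limma) ran from 0.0185 to 0.147 for Elovl3 and from 0.0101 to 0.116 for S100b. Both calls were lost without vehicle replicate 1, 2 or 4, fasudil replicate 1, or combined replicate 1 or 2, and that of Elovl3 also without vehicle replicate 3, fasudil replicate 2 or combined replicate 3. The 6 sympathetic neuron genes, led by Npy, Dbh and Th, summed to 719 in BAPN replicate 1 and to 1.05 in fasudil replicate 1. The groups spanned 1.65 to 24.5 in vehicle, 1.05 to 935 in fasudil, 2.67 to 719 in BAPN and 0.956 to 663 in the combined group. Among smooth muscle genes, Acta2 (172 to 5083), Tagln (148 to 2437) and Myl9 (167 to 1758) led, and the sum of all 10 was 964 in fasudil replicate 1 and 5692 in BAPN replicate 1. The part of these cells in the cardiac values was not tested.

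**Figure D5:**
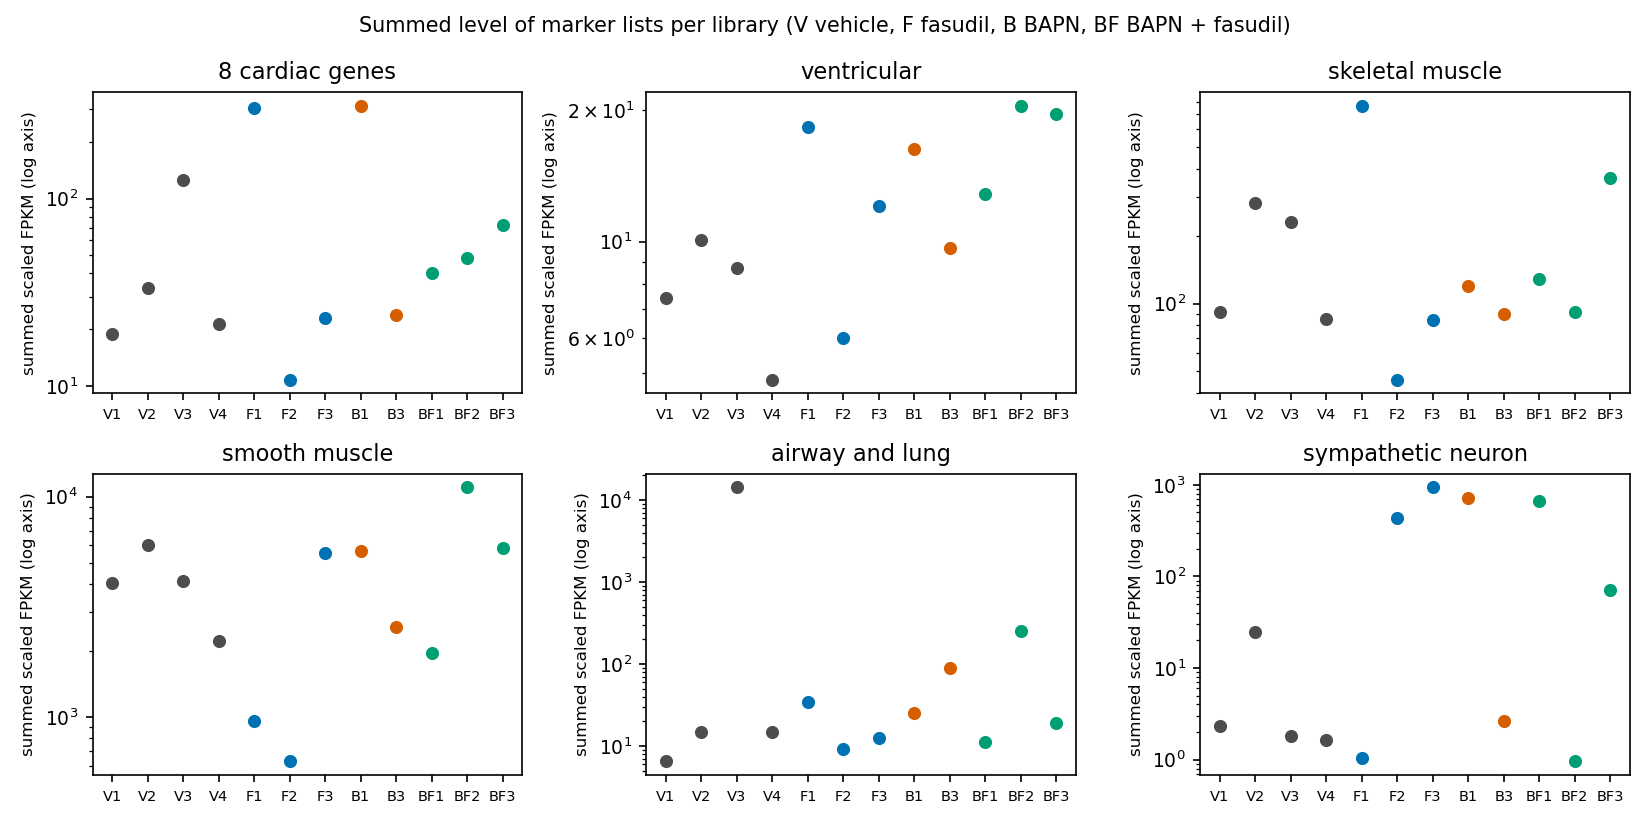
Each panel gives the summed scaled FPKM of a gene list per library on a log axis. The 8 cardiac genes peak in fasudil replicate 1 (F1), BAPN replicate 1 (B1) and vehicle replicate 3 (V3), the skeletal muscle list in F1, the airway and lung list in V3, and the sympathetic neuron list in F2, F3, B1 and BF1.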

How the data were processed

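Although its title speaks of counts, the deposited table gives FPKM per the file headers, computed by the authors to 2 decimals, with the authors' mean FPKM per group beside it. Bowtie2, RSEM and DESeq2 are named in the submitters' processing notes, as are the builds GRCm39 and mm10, with no versions or roles. The strand setting is not given in the sources used here. Gene positions are those of the table, whose build is GRCm39. The length of the longest transcript, deposited as another column, served only for the depth estimate. The column of BAPN replicate 2 equals replicate 1 plus 1 in all 28510 genes and was left out. For each of these genes exactly 1 value with 2 decimals gives the authors' BAPN mean, and this recovered library was tried as an alternative.

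Values were scaled between the 12 libraries by an unweighted trimmed mean of log ratios (30% of ratios and 5% of levels trimmed). Genes that reached 1 FPKM in 2 or more libraries were tested in R 4.3.3 with limma 3.58.1 (moderated test with trend and robust prior) on log2(scaled FPKM + 1), all 4 groups in 1 fit. P-values were adjusted by Benjamini-Hochberg over 13748 genes, with a threshold of 0.05. The pseudocount understates differences of low genes. The procedure was run on simulated normal values with a smaller spread within groups than was observed. That run therefore does not cover genes that vary as widely as the 8 members. A count model was written down as the other choice, for a table of counts, and was not used. Depth was estimated from the steps between low FPKM values, so no counting intervals are given. From each companion list the 3 genes with the highest mean and any called gene were named, and of the genes most like the members, 8, of which 1 is not reported here. Mybphl, Bmp10, Kcnj5, Sbk3, Kcnj3, Irx4, Pln, Nkx2-5, Gata4, Sftpc, Sftpa1 and Sftpd were named after their values were seen. So were Fabp3, Mb, Upk1b, Wt1 and Lrrn4. The members and lists were chosen with earlier results of these data known. Leaving out each library, other scalings, pseudocount, filter, library weights, a replicate block and fits of only the groups compared were tried.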

Additional observations from a re-analysis of the deposited data

Results flagged for a closer look

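Vehicle replicate 3 lay far from the other 3 vehicle libraries in scaled FPKM of Myl4 (20.4), Tnni3 (16.7), Actc1 (23.7) and Sln (3.02), and in the sum of the 8 cardiac genes (126). The gap to the nearest library, as a share of the group's range, was above Dixon's 95% critical value for 4 samples. The same library lay far out in the airway and lung sum (14249), and vehicle replicate 2 in the sympathetic neuron sum (24.5). Chance flags about 1 in 20 measures that are independent of each other, which these are not, since 4 of the genes and the sum that contains them share the same library and rise and fall together. The other groups hold too few libraries for this check.

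The BAPN replicate 2 values recovered from the authors' group mean, which the comparisons do not use, were above every vehicle library for all 8 cardiac genes. In deposited FPKM, Myl4 was at 83.5, Myl7 at 95.3, Myh6 at 71.3 and Nppa at 65.4. Tnnt2 was at 96.0, Tnni3 at 45.2, Actc1 at 45.9 and Sln at 18.6. The highest vehicle values on that scale were 20.0, 18.6, 15.8, 3.26, 22.7, 16.3, 23.1 and 2.95 in the same gene order. BAPN replicate 1 stood at 50.8, 73.0, 42.1 and 138 for Myl4, Myl7, Myh6 and Nppa, and BAPN replicate 3 at 5.35, 2.22, 3.10 and 0.30. Apart from Nppa, the recovered library was thus the highest of the 3 BAPN libraries for every cardiac gene. Mybphl was at 10.6 and Myl2 at 0.34 in the recovered library. Acta1 was at 1.60 there, Scgb1a1 at 0.23 and Th at 7.98, against 11.7, 6.47 and 155 in BAPN replicate 1.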

How the results depend on the processing

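In all 6 comparisons the count of called cardiac genes was 0 of 8 under every alternative except 1: BAPN against vehicle without BAPN replicate 3, where it was 1 (Nppa), so that leaving out 1 library each gave 0 to 1. For the combined group against vehicle, 150 of 160 alternative estimates of the 8 genes kept their sign and none passed the threshold. That share overstates stability, since several alternatives changed no combined or vehicle library, such as leaving out a fasudil or BAPN library. There the estimates could hardly move, and Tnnt2 stayed at 0.77 or 0.78. Myl4 (-0.02) turned to 0.33 without scaling and 0.31 with library weights, whose estimation stopped before it converged. Leaving out 1 library each gave -0.17 to 0.40 for Myl4, -0.29 to 0.96 for Myl7, -0.52 to 1.06 for Nppa and -0.26 to 0.85 for Actc1. Their causes were not tested. Replicate numbers are shared between groups, and same-numbered libraries deviated with correlations of -0.495 to 0.210. Differently numbered libraries were not set beside them, so these values cannot show whether the numbers mark a pairing or a batch. With the replicate block Actc1 was at -0.26, 0 members were called in each comparison, and 0 genes of all tested were called for the combined group against vehicle, against 150 without it.

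That count of 150 (66 higher, 84 lower) was 1680 without scaling (1452 higher, 228 lower), 3943 with library weights, 1512 in a fit of only the groups compared, 771 with the recovered library, 12 without the filter, and 1 to 1570 with 1 library left out. With the recovered library BAPN against vehicle had a median of 1.70 over the 8 genes and a lowest adjusted p of 0.147 (limma). The median went from -0.68 to -1.38 for the combined group against BAPN and from -0.96 to -1.67 for the interaction. Elovl3 and S100b of the brown fat list were not called without the filter (limma, adjusted p = 0.0964 and 0.0687) or with the replicate block (0.265 for both). The pair of BAPN libraries, and levels under 1 FPKM in several libraries, limit the precision.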
